A study of Mus musculus with 28 samples.

Results

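The 2 h comparison set 3 libraries of CTLL2 cells given B16F0 exosomes against 3 libraries of untreated CTLL2 cells, which are 6 of the 28 libraries of the series. CTLL2 is a mouse cytotoxic T-cell line of C57BL/6 origin that grows on interleukin-2, B16F0 is a mouse melanoma line of the same strain, and exosomes are small membrane vesicles that cells release. Members were chosen by the sample titles. Both groups were grown in complete medium for 24 h and moved to fresh medium; the treated group received exosomes in PBS at 0.2 mg/ml with that medium, and RNA was taken 2 h later. The labels describe the controls as unstimulated and mention no PBS or control vesicles for them, so exosomes and their vehicle cannot be told apart. The other libraries, used here for the spread between replicates and for a comparison across times, are untreated cells at 0 h (n = 4) and both groups at 0.5, 4 and 8 h (n = 3 each). The series calls the replicates biological. A single T-cell line stands for T cells here, and each 2 h group has 1 library of batch 1 (untreated replicate 1, exosome replicate 2) and 2 of batch 2, as the sample descriptions give them.

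Melanoma cells release vesicles that carry proteins, lipids and RNA of the parent cell, and T cells can take them up or meet them at the surface. Pigment cells are marked by the melanin enzymes Tyr, Tyrp1 and Dct and by Mitf, the transcription factor that drives these genes. Cytotoxic T cells are marked by the CD3 chains, granzymes and perforin, and they answer stimulation through NF-kB, MYC and cytokine genes such as Ifng and Tnf.

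The deposited values are read counts divided by 1 size factor for each library, called normalized counts here; they are not per length, so levels are not compared between genes. The 6 libraries held between 11680081 and 21305753 reads assigned to genes, and 28% to 35.1% of the 30608 genes were at 0 in each. Absence of reads in a library allows a level of up to 3 reads, worth 2.10 to 3.98 normalized counts, and this limit covers counting error only. Libraries grouped by batch: Pearson's r across genes was 0.987 to 0.994 within a batch and 0.968 to 0.974 between batches, a description in which genes are not independent replicates. Markers of the labelled cell type were present, with Cd3e at 2946 to 3669 normalized counts in all 6 libraries and Gzmb at 35480 to 54827. Cd8a, a chain of CD8, stood at 71.2 to 141.8. Of the 18 genes listed for T-cell identity 17 were abundant enough to be tested, and 1 was at 0 in all 6 libraries. Of the 14 macrophage and dendritic cell markers, Adgre1, Mrc1, Fcgr1 and Cd209a were at 0 in all 6 libraries, while Itgax (5141 to 9047), Cd68 (359.5 to 425.6), Cd14 (154.4 to 220.03) and Cx3cr1 (13.6 to 24.9) were present in both groups; summed, the list stood at 5889 to 9624 untreated and 5718 to 9659 with exosomes. Of the 10 B cell markers, Ms4a1 and Blk were at 0 in all 6, Pax5 stood at 10.3 to 30.02, and Cd79b stood at 58.3 and 38.6 in the batch 1 libraries and at most 3.94 in the others; the list summed to 18.02 to 84.8 untreated and 22.6 to 89.3 with exosomes. Skeletal muscle transcripts were present in 2 of the 6 libraries, untreated replicate 2 (batch 2) and exosome replicate 2 (batch 1). Acta1, the actin of skeletal muscle, stood at 136.1 and 228.7 normalized counts there and at 1.72 to 4.71 in the other 4. Myh4, a fast myosin heavy chain, stood at 181.7 and 384.5 there and at 0 elsewhere. Over 15 markers of muscle (the 18 listed without Ckm, Eno3 and Mylpf, which the other libraries hold too) the sums were 884.4 and 1684 against 13.2 to 30.5. Of the 17 muscle markers tested, 0 were called, and the calls without these libraries are given with the results.

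After 2 h with exosomes, 28 genes were higher and 0 were lower than in untreated cells. Of these genes, 26 averaged below 10 normalized counts in untreated cells, and among them were 4 transcripts of pigment cells. Only 2 called genes averaged 10 or more in untreated cells, the SOCS-box adaptor gene Wsb2 and the long non-coding RNA Gm26809. The test was limma on log2(normalized count + 1), fitted to all 28 libraries with a batch term, with p-values adjusted by Benjamini-Hochberg over the 14828 genes that reached 10 normalized counts in at least 3 of the 28 libraries. A gene was called at an adjusted p below 0.05, and the 28 genes are 0.189% of those tested. At an unadjusted p below 0.05, limma gave 245 genes, 167 higher and 78 lower, less than a 0.05 share of those tested. Fitted to the 6 libraries of 2 h alone, limma gave 496 such genes and 12 calls. Standard errors there were 0.0826 instead of 0.163 for Wsb2 and 0.0985 instead of 0.230 for the NF-kB inhibitor gene Nfkbia. The spread pooled over all times was thus wider for some genes, and an uncalled gene is not shown to be unchanged. In all 28 called genes every exosome library lay above every untreated one. Over all genes tested, 284 (1.92%) lay so and 240 (1.62%) lay entirely below. A gene near 0 in untreated cells enters the test only where enough other libraries hold it, so the share of such genes among the calls is a description. Without the 2 libraries that held muscle transcripts 12 genes were called, all of them among the 28: Tyrp1, 5031439G07Rik, Sh3pxd2a, Hmgn1, Peg10, Maf, Wtip, Ryk, Rbfox2, Fkbp9, Rnf144a and Dst. The other 16 lost their call there, with limma adjusted p from 0.0574 (Enho) to 0.541 (Lbh). Log2 differences there were 0.80 ± 0.21 for Wsb2, 3.06 ± 0.66 for Mitf and 2.84 ± 0.79 for Lbh (SE). With all libraries they were 0.81 ± 0.16, 2.75 ± 0.51 and 2.93 ± 0.60. That fit kept the treated libraries of batch 2 and 1 untreated library of each batch. Whether muscle transcripts or the smaller number of libraries led to the lost calls was not tested. Leaving out 1 of the 6 libraries at a time left 14 to 23 calls.

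**Figure D1:**
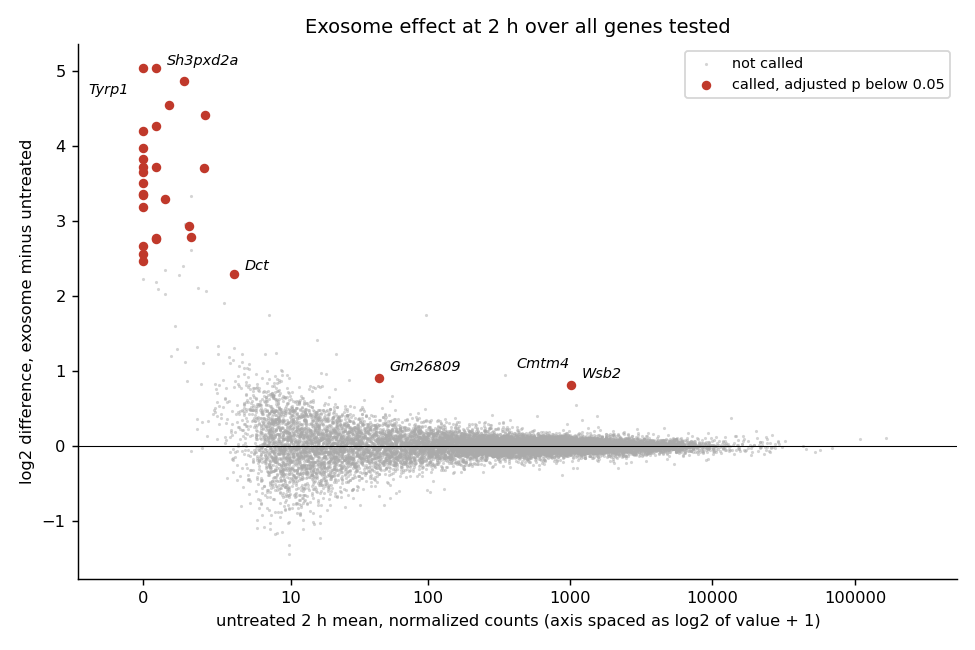
Log2 difference between exosome-treated and untreated cells at 2 h (vertical axis) against the untreated mean in normalized counts (horizontal axis, spaced as log2 of value + 1) for the 14828 genes tested; red points are the 28 called genes. All called genes lie above 0, 26 of them at untreated means below 10, and the cloud of expressed genes lies close to 0.

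The melanin enzyme genes Tyrp1 and Dct, the transcription factor gene Mitf and Trpm1, a cation channel gene of melanocytes and retina, rose. Tyrp1 (ENSMUSG00000005994.14, chromosome 4 from 80834123 to 80851719 on the plus strand of GRCm38) had 0 reads in all 3 untreated libraries and stood at 41.4, 14.3 and 52.7 normalized counts in exosome replicates 1, 2 and 3. Its 118 treated reads make it at least 37.9-fold higher than a floor set at 3 reads for the 3 untreated libraries together, and its fitted log2 difference was 5.03 ± 0.45 (SE; limma adjusted p = 5.92e-07). The batch 1 library was the lowest of the treated ones, and no treated library was near the untreated level. In bulk RNA, more RNA per cell, more cells that hold a transcript and RNA in the added vesicles cannot be told apart.

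Dct (chromosome 14 from 118012790 to 118052244, minus strand) was the called pigment gene with reads in every untreated library, at 3.98, 3.51 and 2.57 normalized counts against 11.8, 25.0 and 27.3 with exosomes. The ratio of reads was 6.65 (95% counting interval 3.51 to 13.9), and the groups did not overlap (log2 difference 2.29 ± 0.40, adjusted p = 0.00487 with limma). Trpm1 (chromosome 7 from 64153835 to 64269775) had 0 untreated reads and stood at 4.92, 5.0 and 19.8 with exosomes, 10.6-fold above the floor (adjusted p = 0.0125 with limma). It was carried mainly by exosome replicate 3. Mitf (chromosome 6 from 97807052 to 98021349) had 1 untreated read against 25 treated ones, with 5.91, 7.86 and 7.53 normalized counts in the treated libraries (log2 difference 2.75 ± 0.51, limma adjusted p = 0.0105). Mitf was not called with edgeR (adjusted p = 0.119) or DESeq2 (0.364), and Dct, Mitf and Trpm1 were not called without the 2 libraries that held muscle transcripts (limma adjusted p = 0.252, 0.101 and 0.327).

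Of the 20 genes on the list of melanocyte and melanoma transcripts, 19 were in the table and 9 were tested, of which these 4 were called higher and 0 lower. The median log2 difference of the 9 was 1.06, against -0.001 over all genes tested. The 4 called members passed the filter on low values only through treated libraries, so this count and median are a description and support nothing. The other tested members were not called: Pmel, the fibril protein of melanosomes, had a log2 difference of 0.30 ± 0.42, and Mc1r, the melanocortin receptor, stood at 2.10 to 6.63 untreated and 3.94 to 13.2 with exosomes. Kit, a receptor that the T-cell line itself expressed at 1237 to 1361 normalized counts untreated, had a log2 difference of -0.06. Gpnmb and Slc24a5 also stood at similar levels in both groups, with log2 differences of 0.10 and 0.08. Among members too scarce to be tested, Tyr, the first enzyme of melanin synthesis, had 0 untreated reads and 2.95, 1.43 and 0.94 normalized counts with exosomes. Rab38 and Slc45a2, a transport GTPase and a transporter of melanosomes, likewise had 0 untreated reads and were detected in all 3 treated libraries. Oca2, Ednrb and Gpr143 were at 0 in all 6, and Sox10 reached at most 0.94.

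Tyrp1, Dct and Trpm1 each have, in the 250 bases before a RefSeq gene start, the letters TCATGTG, which are the core of the M-box known from pigment gene promoters and bound by MITF. The windows shown are those of the called genes that hold these letters. They run 5′ to 3′ on the strand of the gene (GRCm38.p6, from RefSeq), with the motif or its reverse complement CACATGA in capitals, and Tyr is added as the classic pigment gene of the list.
Tyrp1, chr4:80834155-80834183, plus strand: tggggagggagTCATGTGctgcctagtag
Dct, chr14:118052461-118052489, minus strand: cttggctgggaCACATGAgcccaataaag
Dct, chr14:118052380-118052408, minus strand: tgcacttagggTCATGTGctaacaaagag
Trpm1, chr7:64153682-64153710, plus strand: ccaaatcctcaTCATGTGcccaccccaaa
Tyr, chr7:87493517-87493545, minus strand: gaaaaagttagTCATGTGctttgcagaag
The Tyrp1 window lies inside the span that GENCODE gives the gene, whose start is farther upstream. On either strand, the motif was in the same 250 bases of 3.25% of the 32851 promoters in the table, or 3.72% of the 27025 genes. Of the 28 called genes 16 had a promoter in the table and 3 held the motif. Of the melanocyte list 13 were matched and 6 held it. The 6 include Mc1r and Slc24a5, which were not called and whose windows are not shown. A match of letters is a description and shows no binding.

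**Figure D2:**
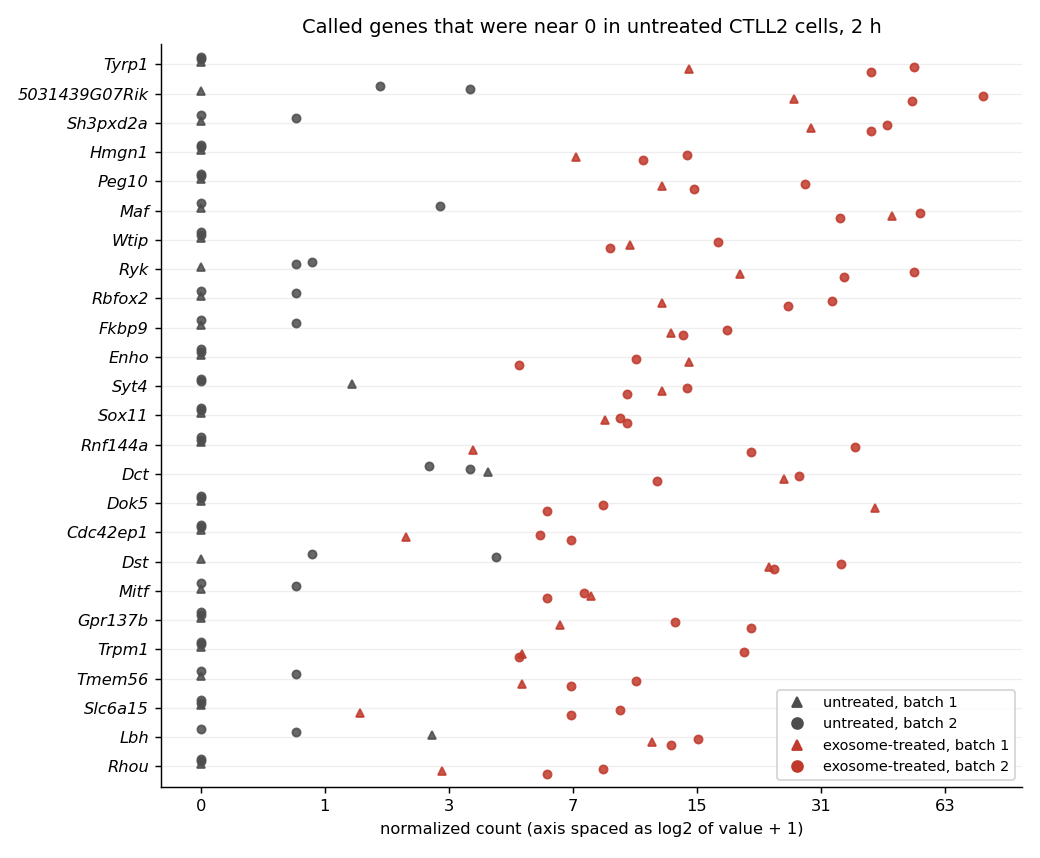
Normalized counts (horizontal axis, spaced as log2 of value + 1) of 25 of the 26 called genes that averaged below 10 in untreated cells, 1 point for each 2 h library, grey untreated and red exosome-treated, triangles batch 1 and circles batch 2. The groups are apart for every gene shown; Tyrp1 is at 0 untreated and at 14.3 to 52.7 treated.

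Of the 26 called genes that were scarce in untreated cells, 13 had 0 untreated reads, and their treated levels were at least 5.13-fold (Cdc42ep1) to 37.9-fold (Tyrp1) above the floor. Another 8 had 1 to 3 untreated reads. The treated means of the 26 ran from 4.90 to 52.3 normalized counts with a median of 14.1. Summed, the 26 made up 30.4, 24.2 and 43.0 counts per 1000000 normalized counts in exosome replicates 1, 2 and 3 and 0.599, 1.37 and 0.460 in untreated replicates 1, 2 and 3. All 26 were detected in each treated library, and 4, 12 and 5 of them in the untreated ones. Exosome replicate 3 gave the highest value for 19 of the 26, and the batch 1 library, replicate 2, the lowest for 18. At 0 h, before the change of medium, 20 of the 26 had no read in any of the 4 libraries.

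The other scarce called genes are taken in the order of what each is known to do, an order made after the calls were known and with no share over all genes; regulators of transcription, chromatin and RNA come first. Maf, a leucine zipper transcription factor of immune and other cells, stood at 0, 2.81 and 0 normalized counts in untreated replicates and at 34.5, 46.5 and 54.6 with exosomes. Its 4 untreated and 158 treated reads gave a ratio of 38.0 (counting interval 14.6 to 141.2), and limma a log2 difference of 4.86 ± 0.62 (adjusted p = 9.57e-05). The 2.81 was in the untreated library that held muscle transcripts, and without the 2 such libraries Maf was still called (adjusted p = 0.000298 with limma). Rbfox2, a splicing factor, had 1 untreated read and stood at 25.6, 12.2 and 33.0 with exosomes (log2 difference 4.26 ± 0.57). Sox11, a neural crest and embryonic transcription factor, had 0 untreated reads and close treated values of 9.85, 8.58 and 9.42. Peg10, an imprinted gene derived from a retrotransposon, had 0 untreated reads and stood at 14.8, 12.2 and 28.3, 19.9-fold above the floor. Hmgn1, a nucleosome-binding protein, was at 0 against 10.8, 7.15 and 14.1; near-identical copies of it lie elsewhere in the genome, so its value is uncertain. Wtip, a LIM-domain adaptor, was at 0 against 8.86 to 17.0, and Lbh, a transcription cofactor, at 0 to 2.65 against 11.4 to 15.1. Maf, Rbfox2, Sox11, Peg10, Hmgn1 and Wtip were called in each fit that left out 1 of the 6 libraries, while Lbh lost its call in 5 of the 6. Sox11 was not called without the 2 libraries that held muscle transcripts (limma adjusted p = 0.101).

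Next are 4 genes tied to the cytoskeleton. Sh3pxd2a encodes TKS5, the scaffold of invadopodia, with which invasive tumour cells degrade matrix. It had 1 untreated read against 131 treated ones and stood at 41.4, 29.3 and 45.2 normalized counts with exosomes (log2 difference 5.03 ± 0.60, limma adjusted p = 4.79e-05). All 3 treated libraries were of like level, the batch 1 library included. Dst, a linker of actin and other filaments, stood at 0, 4.21 and 0.858 untreated and at 23.6, 22.9 and 34.8 treated (log2 difference 3.70 ± 0.68). The CDC42 effector gene Cdc42ep1 and Rhou, a small GTPase, had 0 untreated reads and only 16 and 19 treated reads in all. DESeq2 called neither (adjusted p = 0.13 and 0.094).

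Receptors, other membrane or secreted proteins and signalling adaptors follow. Ryk, a receptor for Wnt ligands, stood at 0, 0.701 and 0.858 normalized counts untreated and at 35.4, 19.3 and 52.7 with exosomes (read ratio 57.3, counting interval 15.5 to 478). Dok5, a docking protein of receptor tyrosine kinases, was at 0 against 5.91, 42.2 and 8.48, so that the batch 1 library alone set its mean. Syt4, a vesicle synaptotagmin, had 1 untreated and 42 treated reads, with treated values of 9.85 to 14.1. Gpr137b, a lysosomal membrane protein, and Slc6a15, a transporter of neutral amino acids, had 0 untreated reads against 44 and 19 treated ones. Tmem56, a multi-pass membrane protein gene, had 1 untreated and 25 treated reads. Enho, which encodes the secreted peptide adropin, was at 0 against 4.92, 14.3 and 10.4; it overlaps the opposite-strand gene Dnaic1, and whether strand was used in counting is not stated.

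The last of the scarce called genes were Fkbp9, a prolyl isomerase of the endoplasmic reticulum, Rnf144a, a ubiquitin ligase, and the RIKEN clone 5031439G07Rik. Fkbp9 had 1 untreated read and even treated values of 13.8, 12.9 and 17.9 normalized counts. Rnf144a had 0 untreated reads and uneven treated values of 20.7, 3.57 and 37.7. 5031439G07Rik stood at 0, 3.51 and 1.72 untreated and at 52.2, 26.4 and 78.2 treated (log2 difference 4.40 ± 0.45, limma adjusted p = 4.56e-06). The genes just outside the threshold were of the same kind: Gxylt2 stood at 0 to 1.33 untreated and 2.86 to 10.4 treated (adjusted p = 0.0776 with limma). Ets1, a lymphocyte transcription factor, stood at 0 to 2.10 and 8.86 to 19.8 (adjusted p = 0.0834).

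Wsb2, the substrate adaptor of a ubiquitin ligase, was the called gene among those well expressed in untreated cells. Wsb2 (ENSMUSG00000029364.15, chromosome 5 from 117357304 to 117378601) stood at 972.9, 1100.45 and 964.4 normalized counts untreated and at 1799, 1473 and 2084 with exosomes. That is 1013 ± 76.2 against 1785 ± 306 (SD, n = 3 each), without overlap, and a log2 difference of 0.81 ± 0.16 (limma adjusted p = 0.0271). Within batch 2 the log2 difference was 0.91, and in the single pair of batch 1 libraries 0.60. The call was lost in 5 of the 6 fits that left out 1 library, where the log2 difference stayed between 0.70 and 0.86 and the adjusted p reached 0.382, and without the libraries that held muscle transcripts (0.394). Wsb2 shares part of its span with Rfc5 on the opposite strand. Of 16 tested genes of the list of WSB and other SOCS-box adaptors 10 lay above 0, Wsb2 alone was called and 0 were called lower. Over all genes tested 0.189% were called. Wsb1, the paralogue of Wsb2, had a log2 difference of 0.03 (95% interval -0.16 to 0.22). Gm26809 (chromosome 6 from 18844220 to 18847360) stood at 38.4, 42.1 and 52.3 untreated and 89.6, 67.9 and 92.3 treated (log2 difference 0.89 ± 0.15, adjusted p = 0.00487 with limma). With only genes at 10 or more in untreated cells tested, neither passed (limma adjusted p = 0.324 for Wsb2, 0.0704 for Gm26809).

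Cmtm4, a membrane protein that stabilises PD-L1 in other cells, was high in 2 of the 3 treated libraries. It stood at 324.7, 369.6 and 358.7 normalized counts untreated and at 853.7, 378.8 and 935.1 in exosome replicates 1, 2 and 3. The 2 high libraries are those of batch 2, and the batch 1 library was just above the untreated ones. Over both batches the log2 difference was 0.94 ± 0.24 and did not pass with limma (adjusted p = 0.240), while DESeq2 called it (0.0235). In batch 2 alone it was 1.29 and called (limma adjusted p = 1.64e-05), in the batch 1 pair 0.22. The difference between batches was 1.07 and did not pass (limma adjusted p = 0.157). Cd274, which encodes PD-L1, had a log2 difference of -0.16 (95% interval -0.44 to 0.13), and of the 4 tested CMTM genes 0 were called.

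Nfkbia, the inhibitor that NF-kB induces to shut itself off, split by batch too. It stood at 330.0, 402.6 and 406.7 untreated and at 587.8, 328.8 and 574.4 with exosomes. The log2 difference was 0.35 ± 0.23 over both batches (not called, limma adjusted p = 0.9997) and 0.52 in batch 2 alone (adjusted p = 0.00653), and the 2 batch 1 libraries were level at -0.01. Ptpn14, a tyrosine phosphatase, stood at 540.8 to 617.2 untreated and 656.8 to 868.2 treated, and passed only in batch 2 (0.45, limma adjusted p = 0.0499). The batch differences of Nfkbia and Ptpn14 did not pass (limma adjusted p = 0.323 and 0.789). Of 19 tested genes of NF-kB targets and feedback 16 lay above 0 and 0 were called, with a median of 0.08. Over all genes tested 7325 of 14828 lay above 0 and 0.189% were called. Among genes of cholesterol and fatty acid synthesis 24 of 27 lay above 0, and of MYC and ribosome biogenesis 5 of 22. These counts are a description. Tnfaip3 stood at 14.6 to 43.7 against 27.6 to 36.5.

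**Figure D3:**
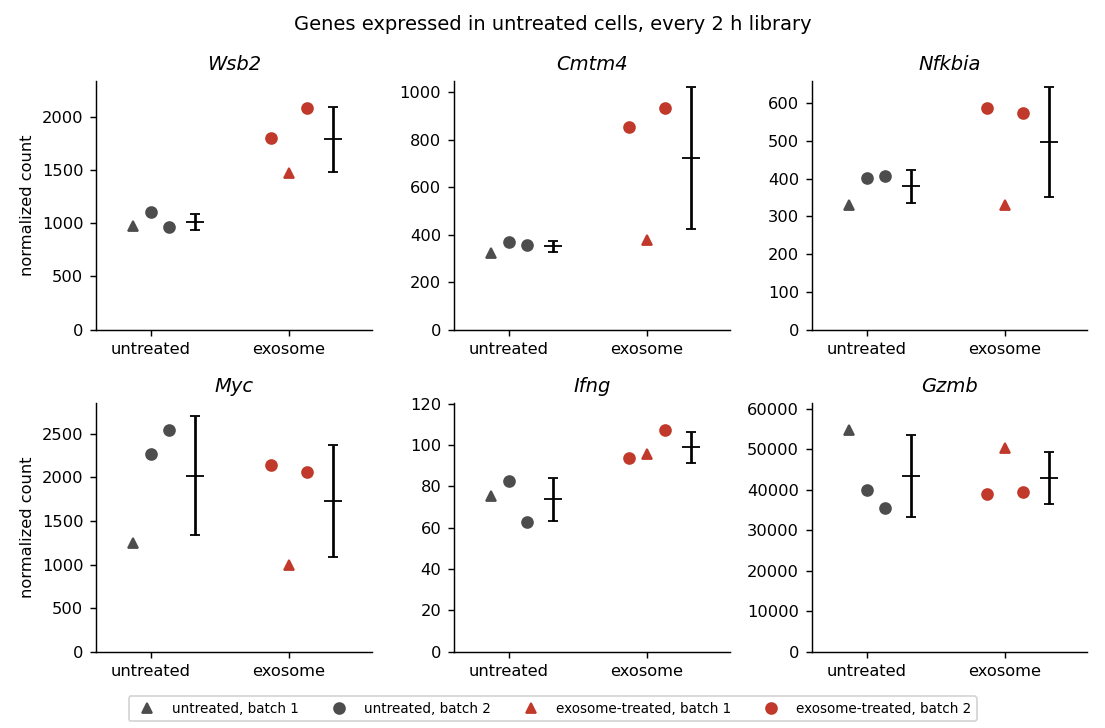
Normalized counts (vertical axes, from 0) of 6 genes in each 2 h library, grey untreated and red exosome-treated, triangles batch 1 and circles batch 2; bars to the right of the points are mean ± SD (n = 3). Wsb2 is higher in all 3 treated libraries, Cmtm4 and Nfkbia are high in the 2 treated libraries of batch 2, and the other 3 genes were not called.

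Among the 10135 genes that averaged at least 100 normalized counts untreated, the log2 difference was within 0.2 of 0 for 97.5%, with a median standard error of 0.10. It exceeded 0.5 for 3 genes, was below -0.5 for 2 and passed 1 in either direction for 0. Myc, the growth-driving transcription factor, had the smallest p of those that were lower. It stood at 1249, 2262 and 2544 untreated and at 2141, 994.2 and 2061 with exosomes, and was lower in both batches, by a log2 difference of -0.24 (95% interval -0.38 to -0.10). It did not pass (limma adjusted p = 0.766), and in both groups the batch 1 library was far below the batch 2 ones. The other expressed genes of smallest p, Sec22c, Rgs16, Lsm11, Vmac and Kif1c above 0 and Rpl28-ps1, Nagpa, Ppargc1a, 4931414P19Rik, Zfp940, Aifm2 and Gm5786 below, ran from 0.24 to 0.29 and from -0.47 to -0.22, and 0 of them were called.

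On the lists of T-cell genes 0 were called at this time. Over all genes tested 0.189% were called, and 0.0099% of those averaging 100 or more untreated. Lists this short are near that share with 0 calls, so these counts are a description. Gzmb, the main cytotoxic protease, had a log2 difference of -0.00 (95% interval -0.20 to 0.19), and Prf1, the pore-forming perforin, 0.14 (-0.03 to 0.31). All 16 cytotoxic effector genes were tested, 0 were called, and their median was 0.06. Ifng stood at 75.6, 82.8 and 62.6 untreated and at 93.5, 95.8 and 107.4 with exosomes, without overlap between groups. Its log2 difference was 0.43 (95% interval 0.02 to 0.83) and it was not called (limma adjusted p = 0.9997). Tnf likewise stood at 142.4 to 160.4 against 191.2 to 207.8, a log2 difference of 0.37 (0.11 to 0.64) that did not pass. Over all genes tested 284 (1.92%) lay entirely above the untreated libraries and 240 (1.62%) entirely below. Among T-cell genes Cd274, Zap70 and Pim1 lay entirely below and were not called, so such separation is a description. Of 9 tested effector cytokines and chemokines 0 were called, with a median of 0.03.

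Il2ra, the high-affinity chain of the interleukin-2 receptor on which the line depends, had a log2 difference of -0.09 (95% interval -0.30 to 0.13). Ptpn11, which encodes the phosphatase SHP2, had 0.03 (-0.10 to 0.15), and Il12rb2, a chain of the interleukin-12 receptor, -0.03 (-0.29 to 0.23). The lists of T-cell identity (17 tested), inhibitory receptors (8), interleukin-2 signalling (19), interleukin-12 and interleukin-18 signalling (9) and tyrosine phosphatases (14) had medians from -0.03 to 0.04, and 0 members were called. Oxidative phosphorylation (31), glycolysis (18), MYC and ribosome biogenesis (22), G1/S and replication (25) and G2/M (22) had medians from -0.04 to 0.01 and 0 called members. E2f2, a G1/S transcription factor, stood apart on its list at 0 untreated reads and 3.94, 1.43 and 7.53 with exosomes, uncalled (log2 difference 2.23, limma adjusted p = 0.9997). Over all genes 0.189% were called and 7325 of 14828 lay above 0, so 0 called members on a list is near the share over all genes. Immediate early genes (23 tested), interferon response (17), cholesterol and fatty acid synthesis (27), TGF-beta (13), heat shock (17), ATF4 (14), p53 (14) and BCL-2 family genes (13) also had 0 called. So did LXR targets (4), vesicle and tetraspanin genes (18) and the markers of fibroblasts (9), macrophages and dendritic cells (4), B cells (3) and erythroid cells and platelets (2), and 0 of the keratinocyte markers were abundant enough to be tested.

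**Figure D4:**
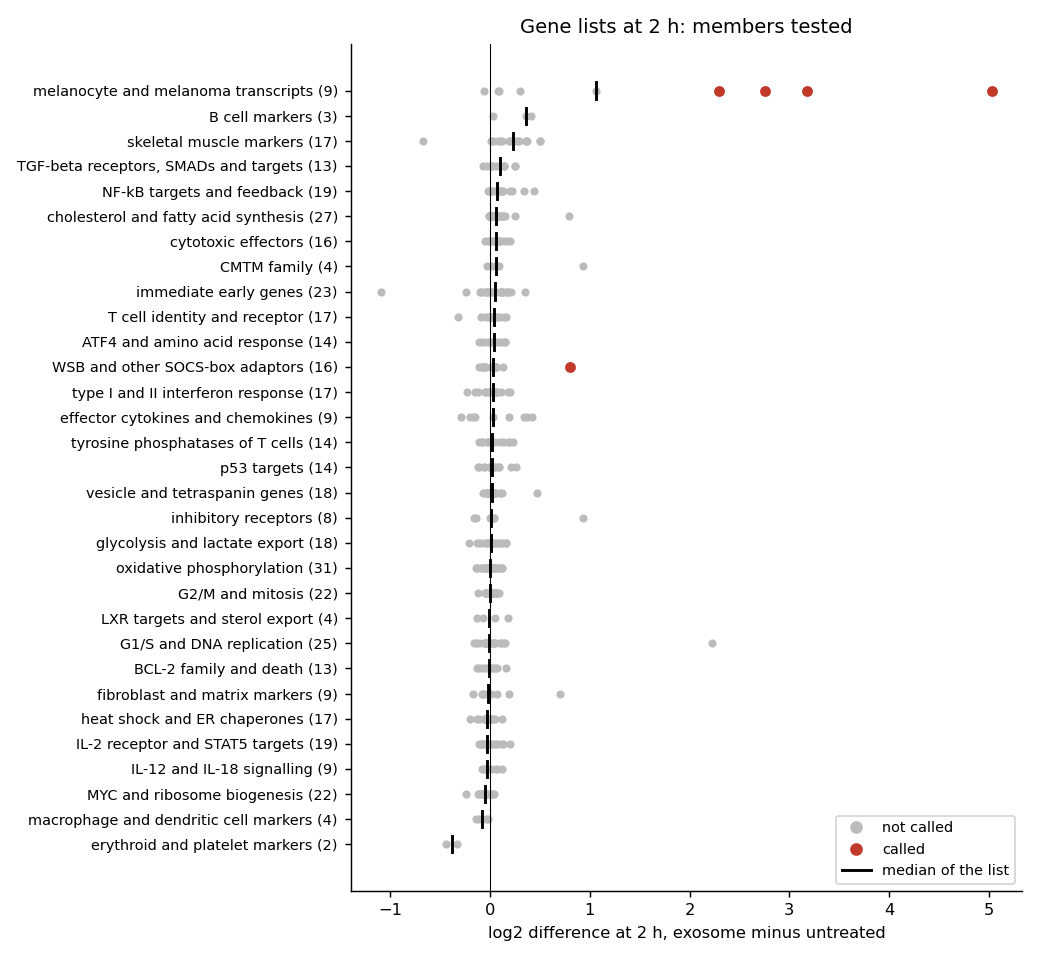
Log2 difference at 2 h (horizontal axis) of each tested member of 31 gene lists, with the number tested in parentheses; red points are called genes and black bars medians. Called genes are found on 2 lists, 4 melanocyte and melanoma transcripts and Wsb2 among the SOCS-box adaptors, and most other medians lie near 0.

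The genes called at 2 h were then followed in the libraries of the other times, none of which enters the 2 h difference, although all share the estimate of spread and the filter. The 26 scarce genes passed that filter only through treated libraries, those of the other times included, and 5 of them (Sox11, Cdc42ep1, Mitf, Slc6a15 and Rhou) reached 10 normalized counts in no 2 h library. Their calls at the other times are therefore partly fixed by the filter and are given as a description. Of the 28 genes, 27 were called higher at 0.5 h (where 0.243% of all genes were), 22 at 4 h (0.155%) and 26 at 8 h (0.391%). All 28 were called in the mean of those 3 times, in which limma called 61 genes (0.411%) higher and 0 lower. The 28 are 100% of the 2 h calls and 45.9% of the calls of the other times, and 20 genes were called at each of the 4 times. Their median log2 difference was 3.63 at 0.5 h, 3.43 at 2 h, 3.26 at 4 h and 3.40 at 8 h. Tyrp1 had log2 differences of 5.43, 5.03, 4.77 and 5.10 in that order, and Wsb2 1.10, 0.81, 0.84 and 0.76. In summed level, the 26 scarce genes stood at 24.2 to 66.0 per 1000000 at 0.5 h, 30.6 to 36.9 at 4 h and 29.6 to 43.4 at 8 h in treated libraries. The highest untreated library at those times held 4.33 per 1000000, untreated 4 h replicate 1. The treated range at 2 h, 24.2 to 43.0, overlaps each of these.

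The 2 h effect was compared with the mean effect of 0.5, 4 and 8 h in the same limma fit. Of 14828 genes 0 differed (0%), with 217 at an unadjusted p below 0.05, and edgeR and DESeq2 also called 0. Of the 28 called genes 14 had a larger difference at 2 h than in that mean. Cdc42ep1 was the single one with an unadjusted p below 0.05, with -1.12 ± 0.51 on the log2 scale at 2 h, which did not pass after adjustment. The smallest p over all genes belonged to Zfp993, a zinc finger gene (2 h minus the others 0.99), Gm9873 (-0.84), Gm37305 (0.45), Gm12188 (-1.10) and Gm24951 (1.16), predicted genes or scarce transcripts for the most part. Against each other time in turn limma called 0 genes, with 348, 210 and 1913 at an unadjusted p below 0.05 for 0.5, 4 and 8 h. Nfkb2, an NF-kB subunit, had log2 differences of 0.13, 0.09, 0.53 and 0.61 in time order. With limma it was called higher at 8 h (adjusted p = 0.0133) and in the mean of the other times (0.000705), but not at 2 h (0.9997). Its contrast of 2 h with the other times did not pass (unadjusted p = 0.0236 with limma).

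**Figure D5:**
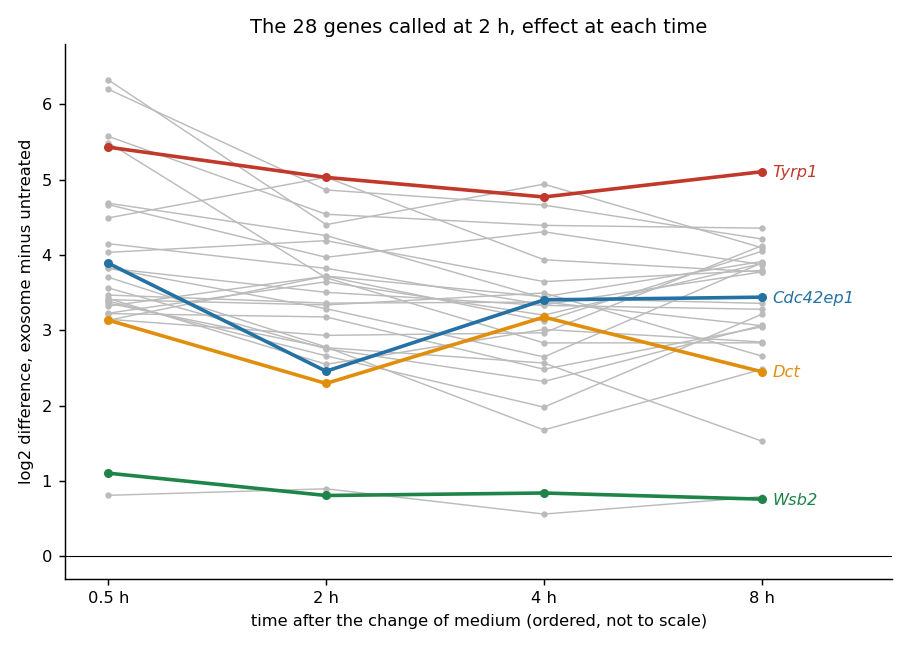
Log2 difference between exosome-treated and untreated cells (vertical axis) at 0.5, 2, 4 and 8 h (horizontal axis, ordered and not to scale) for the 28 genes called at 2 h, 1 line each. Every gene lies above 0 at every time; Cdc42ep1 falls from 3.89 at 0.5 h to 2.46 at 2 h, and Wsb2 and Gm26809 lie between 0.56 and 1.10.

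For the 28 genes every exosome library lay above every untreated one, so their direction within each batch was fixed in advance and is a description. In batch 2 alone limma called 28 genes (0.189%), 0 of them lower, and 21 are among the 28 called over both batches. In the single pair of batch 1 libraries, which allows no test, all 28 lay above 0, Tyrp1 at 3.93 against 5.58 in batch 2 and Maf at 5.57 against 4.51. The difference between the batches' effects was called for 1 gene (0.00674%), the pseudogene Rps16-ps2, which can share reads with Rps16, and for 0 of the 28. Next to it by p were Hist1h2af, a histone gene at 70.0 normalized counts in exosome replicate 2 and at most 5.15 in the other 5 libraries, the ATP synthase gene Atp5o, Gm4987 and Cmtm4, none of which passed (limma adjusted p = 0.138 to 0.157).

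Fresh medium was common to both groups. In untreated cells 2 h and 0 h differed for 272 genes (1.83%), and 0 of the 28 genes were among them, which is near that share. Of the 26 scarce ones, 13 had no untreated read at 2 h and 20 had none at 0 h. Most of them could hardly be called in this contrast, so it says little about them. Tyrp1 had no read in the 4 libraries of 0 h.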

How the data were processed

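RNA sequencing measured gene expression in 28 libraries, 6 of them at 2 h. Per the labels' protocols, TRIzol RNA was made into TruSeq V2 libraries and sequenced in pairs; strand use in counting is not stated. Per the submitters' processing notes, tools included STAR 2.4.2, CASAVA 1.8.4, DESeq2, featureCounts 1.5.0 and R 3.3.2, and the build was GRCm38.p2, with settings not given. The authors deposited a normalized signal, counts divided by 1 size factor per library: each library's values were multiples of 1 step, and 100% came out as whole reads (tolerance 0.01 read). No column lacked a sample. Symbols and positions came from GENCODE M21 on GRCm38, with 30403 of 30608 identifiers found.

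The 14828 genes that reached 10 normalized counts in 3 or more of the 28 libraries entered the test. It was limma 3.58.1 (trend option, R 4.3.3) on log2 values with 1 added, with 1 mean per group and a batch term (18 residual degrees of freedom). The log scale understates changes of genes near 0. Benjamini-Hochberg adjustment ran over all genes, with calls below 0.05. The contrasts were exosome against untreated at 2 h, the mean of the other times, their difference, and the difference between batches, which used 1 mean per group and batch (10 residual degrees of freedom, all from batch 2, so that the lone batch 1 libraries were assumed to vary like batch 2). Errors of log2 differences are limma's standard errors, of levels SD; the intervals are 95% ones. Read ratios have exact binomial intervals, which cover counting error only, since reads carry no molecular identifiers. Chi-square per degree of freedom was 1.32 between exosome replicates 1 and 3 and 5.93 between untreated replicates 2 and 3, all of batch 2. Pairs across batches ran from 66.7 to 81.0. The treated pair of batch 2 differed by little more than counting error, and no pair was treated as 1 library. Calls in batch 2 alone rest on that pair, and whether its libraries are independent was not tested. Scripts were tested on simulated data.

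Alternatives were edgeR 4.0.16 and DESeq2 1.42.0 on the recovered reads, TMM factors, pseudocounts of 0.5 and 5, no filter, a filter on the untreated mean, no batch term, the 2 h libraries alone, batch 2 alone, a replicate block and leaving out each library; leaving out the libraries with muscle transcripts was chosen after seeing the data. The rule for naming covered all called genes and the 8 of smallest p in each direction at 100 or more untreated counts. It also covered the 5 of smallest p in the time and batch contrasts. From each of 32 lists it took up to 4 called members (or 2 of smallest p), and it added fixed genes of melanocytes and T cells. Some uncalled list members and fixed genes under this rule are covered only by the counts or medians of their lists. 1 called gene is not reported here. Other genes are named to account for list members or as the nearest outside the threshold. The comparison, lists and rule were chosen with earlier results of these data known.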

Additional observations from a re-analysis of the deposited data

Results flagged for a closer look

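The 2 h exosome effect on Rps16-ps2, a processed pseudogene of a ribosomal protein gene, differed between the batches. The effect in batch 2 minus that in batch 1 was 0.92 ± 0.13 on the log2 scale (limma adjusted p = 0.0431 over 14828 genes). Its normalized counts were 7465, 4097 and 4481 in untreated replicates 1, 2 and 3 and 4425, 4094 and 4477 in exosome replicates 1, 2 and 3. The untreated library of batch 1 was far above the other 5, which lay close together. Reads can be shared with Rps16, so the value is uncertain, and it was not called with edgeR (adjusted p = 0.0592) or with TMM factors (limma adjusted p = 0.135).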

How the results depend on the processing

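When genes had to average 10 or more in untreated cells, 0 of the 28 calls at 2 h were left (171 genes at an unadjusted p below 0.05 with limma). That filter removed 26 of them before testing, so only Wsb2 and Gm26809 could lose a call by test. The 28 calls became 12 with the 6 libraries of 2 h alone and 12 without the libraries that held muscle transcripts. They became 14 to 23 when 1 library was left out (16 without untreated replicate 3, 18 without exosome replicate 2, 14 without exosome replicate 3). Of the 28, 13 were called in all 6 leave-outs and with edgeR and DESeq2: Tyrp1, 5031439G07Rik, Sh3pxd2a, Hmgn1, Peg10, Maf, Wtip, Ryk, Rbfox2, Fkbp9, Enho, Syt4 and Sox11; of these Enho, Syt4 and Sox11 were not called without the libraries that held muscle transcripts (limma adjusted p = 0.0574, 0.101 and 0.101). edgeR and DESeq2 each called 26 genes. With no filter 42 were called, which is within 1.5 times but brought 1 lower call. The same replicate numbers do not pair the samples: the correlations of same-numbered deviations were -0.54, -0.30 and 0.58, and batch 1 holds untreated replicate 1 and exosome replicate 2. With the replicate block, on the 6 libraries, limma called 0 genes (60 at an unadjusted p below 0.05). In the mean of the other times 61 calls became 164 with no filter. The batch difference, 1 call, became 0 with edgeR, 22 with DESeq2, 0 with TMM factors and 63 with no filter; the cause was not tested. The contrast of 2 h with the other times stayed at 0 calls in each alternative run, the block included. For called genes named in the text, 326 of 484 values under alternatives kept the call, 158 lost it and 0 changed sign. In the 28 called genes every exosome library at 2 h lay above every untreated one. Their sign was therefore all but fixed in advance, and its constancy is a description. Of 1572 values of uncalled genes 42 had the other sign. TMM factors moved the median log2 difference by 0.01. Depth limits the scarce genes most: 3 reads in a library are worth up to 3.98 normalized counts, close to the treated means of several called genes.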
